A study of Mus musculus with 18 samples.

Results

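The HP1 proteins and the enzymes and corepressor of heterochromatin built on methylation of lysine 9 of histone H3 (H3K9) were followed in RNA and macroH2A2 ChIP data. Their genes, Cbx1, Cbx3, Cbx5, Suv39h1, Suv39h2, Ehmt1, Ehmt2, Setdb1 and Trim28, were taken by name, and all 9 were found among the 48440 genes counted. The cells were mouse dermal fibroblasts from newborn males of the 129/S6 strain, immortalized with SV40 and used at passages 20 to 30. By their labels they lacked macroH2A1 and macroH2A2, histone H2A variants with a large globular macro domain, and carried a macroH2A2-GFP transgene driven by doxycycline. Both gene deletions and the transgene were shared by every RNA and macroH2A2 library, including those at 0h. Native ChIP-seq of macroH2A2-GFP had 1 library each at 24h of doxycycline with 0.5 uM flavopiridol (a CDK9 inhibitor) for the last 18 hours, at 6h and at 24h of doxycycline after 10 days of 5 uM GSK126 (an inhibitor of the H3K27 methyltransferase Ezh2), and without inhibitor at 0h, 6h, 24h and 5d. Doxycycline was used at 0.5 ug/ml. Poly(A) RNA was counted in 3 replicates each at 0h, 6h and 24h. Another ChIP library was for H2A.Z, in primary neonatal dermal fibroblasts of wild-type females of the same strain at passages 0 to 1. None of the libraries analysed here had doxycycline without the transgene, so effects of the drug and of macroH2A2 cannot be told apart.

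HP1 proteins bind methylated H3K9 through a chromodomain and compact the chromatin that carries it. Suv39h1 and Suv39h2 place trimethylation mainly at pericentromeric repeats, Ehmt1 and Ehmt2 form a heterodimer that places mono- and dimethylation in euchromatin, and Setdb1 places trimethylation at retroelements and silenced genes. Trim28 is the corepressor that brings Setdb1 and HP1 proteins to sites bound by KRAB zinc-finger proteins.

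H2afy2, the gene of the induced variant, had 15.1 ± 8.80 CPM at 0h, 820.2 ± 14.3 CPM at 6h and 1727 ± 13.8 CPM at 24h (SD, n = 3 each). The 0h mean rests partly on replicate 2, which had 25.3 CPM. H2afy, the macroH2A1 gene, had 51.5 to 60.6 CPM over the 9 libraries, and counts over the whole gene do not check a partial deletion. Libraries held 29338093 to 37793178 counts over genes, and the members had 753 to 42233 counts in single libraries. CPM are the library-size-scaled counts of edgeR after TMM normalization. The fibroblast label was set against markers. Of 12 fibroblast markers, 10 passed the filter on low counts, and Fap and Lum did not. The 12 summed to 10957 to 11308 CPM at 0h, 9975 to 10195 CPM at 6h and 10257 to 10691 CPM at 24h. Vim had the highest mean of them, 4402 CPM without TMM. Low among them were Dcn, with 1.08 to 2.29 TMM-scaled CPM over the 9 libraries, and Pdgfra, with 9.88 to 12.6. Without TMM the fibroblast sums at 0h lay above those at both later times. The 6h and 24h sums lay close together, and their separation can depend on the scaling. The part of these sums in the changes below was not tested. Markers of keratinocytes summed to at most 8.95 CPM and those of macrophages and leukocytes to at most 3.99 CPM. Endothelial, melanocyte, Schwann, and muscle and adipocyte markers summed to at most 1.93 CPM in any library, and Krt5, Krt1, Adgre1, Dct, Tyr, Sox10, Myod1 and Myog were at 0 in all 9 libraries. In bulk RNA, fewer cells of a type and less RNA per cell cannot be told apart.

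The log2 changes of the members ran from -0.40 to 0.14 in RNA at 6h against 0h and from -0.08 to 0.07 at 24h against 0h. At 6h of doxycycline 3 of the 9 were called at an adjusted p under 0.05 in edgeR's quasi-likelihood test: Suv39h2 rose, and Ehmt2 and Trim28 fell. Over all 13785 genes tested 39.0% were called in the same comparison, with 20.8% rising and 18.2% falling, and among genes averaging 10 CPM or more, as all members do, 51.9% were called. The share of members called is not above either. The median log2 change was -0.0056 over the 9 members and 0.0067 over all genes. At 24h against 0h no member was called, where 7.04% of all genes were, 4.17% rising and 2.87% falling. Without adjustment, Cbx1, Cbx5 and Ehmt2 had p under 0.05 in that comparison (3 members). The share of all genes under this unadjusted limit was not computed, so the 3 cannot be read as many or few. DESeq2 called 0 members. At 24h against 6h Ehmt2 and Trim28 rose and Suv39h2 fell, 3 of 9 members beside 36.1% of all genes (17.4% rising, 18.8% falling) and 47.5% of those averaging 10 CPM or more. The 3 comparisons share libraries in pairs, so a gene that departs at 6h alone appears in both comparisons that hold the 6h libraries.

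**Figure D1:**
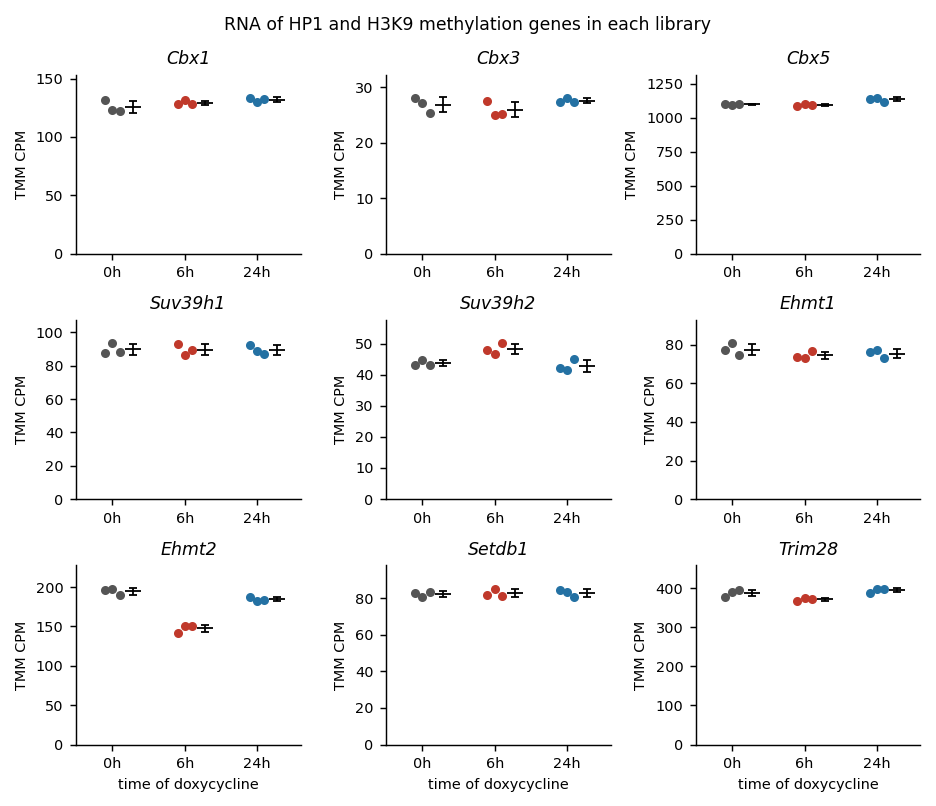
TMM-scaled CPM for each of the 9 genes (vertical axes, each from 0) in the 3 libraries at 0h, 6h and 24h of doxycycline (horizontal axes). Points are libraries, and the bars beside them are the mean and SD of 3 libraries. Ehmt2 stands at 142 to 150.4 CPM at 6h, below all of its other libraries.

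Ehmt2 (G9a, ENSMUSG00000013787, chromosome 17, 34898463 to 34914073, plus strand, RefSeq GRCm38.p6) had the largest RNA change among the members. Its 3 libraries had 197, 198 and 189.7 CPM at 0h, 142, 150.1 and 150.4 CPM at 6h, and 187, 182 and 184 CPM at 24h. The 6h libraries were all lower than every library of the other times, and the 24h libraries lay just under those at 0h with no overlap. At 6h its log2 change against 0h was -0.40, a fall (SE 0.028, adjusted p = 4.6e-12), or -24.3% in linear terms. The median size of change among all genes called at 6h was 0.20 on the log2 scale. At 24h against 0h the log2 change was -0.08 (SE 0.028, adjusted p = 0.0896), which did not pass. Against 6h, Ehmt2 rose by 0.32 at 24h (SE 0.028, adjusted p = 4.7e-10). Its fall at 6h was called under all 15 alternative settings and left-out libraries, between -0.42 and -0.37.

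2 start sites are annotated for Ehmt2. The 250 bases before the first, chr17:34898224-34898473 on the plus strand (RefSeq, GRCm38.p6), are printed with those of Suv39h2 and Trim28 because these are the members whose RNA was called. Capitals mark the GC box letters GGGCGG or CCGCCC and the CCAAT box letters CCAAT or ATTGG, each searched on both strands. The windows are chr17:34898224-34898473 (plus) for Ehmt2, chr2:3474987-3475236 (minus) for Suv39h2 and chr7:13023902-13024151 (plus) for Trim28.
Ehmt2: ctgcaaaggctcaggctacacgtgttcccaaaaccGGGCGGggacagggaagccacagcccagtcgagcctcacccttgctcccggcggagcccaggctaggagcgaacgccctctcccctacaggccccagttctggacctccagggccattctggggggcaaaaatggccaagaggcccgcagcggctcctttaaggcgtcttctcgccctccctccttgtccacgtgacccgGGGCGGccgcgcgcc
Suv39h2: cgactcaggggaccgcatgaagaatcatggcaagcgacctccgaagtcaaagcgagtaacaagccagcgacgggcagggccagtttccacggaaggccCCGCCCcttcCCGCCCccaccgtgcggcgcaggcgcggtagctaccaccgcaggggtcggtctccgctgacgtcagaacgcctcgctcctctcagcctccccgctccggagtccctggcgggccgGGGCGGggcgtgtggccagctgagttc
Trim28: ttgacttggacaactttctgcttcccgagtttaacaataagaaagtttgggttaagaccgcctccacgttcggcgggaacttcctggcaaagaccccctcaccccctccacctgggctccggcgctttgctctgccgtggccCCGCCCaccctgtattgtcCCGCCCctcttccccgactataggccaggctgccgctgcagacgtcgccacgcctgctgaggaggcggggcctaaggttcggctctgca
None of the 3 windows holds a CCAAT box or the TATA letters TATAAA, and GC boxes number 2 in Ehmt2, 3 in Suv39h2 and 2 in Trim28. All 9 members matched the promoter table, with 13 annotated starts. GC box letters were in 12 of these 13 windows and in 32.7% of the 32851 promoter windows of the table. CCAAT box letters were in 3 of 13 windows against 33.8% of all, TATAAA in 0 of 13 against 12.4%, and the E-box letters CACGTG in 3 of 13 against 6.02%. The windows with E-box letters were those of both Ehmt2 starts and of the first Cbx5 start, so the 13 windows are not separate members. No base of the 13 windows belonged to more than 1 of these motifs. The members' windows were GC-rich, with a median of 67.2% G and C (range 49.6 to 84%) against 52.4% over all windows. They held a median of 22 CpG (range 7 to 36) against 6. The windows of the table were taken whatever the RNA level of their genes. Shares among expressed genes, as all 9 members are, were not computed.

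Ehmt1 (GLP, ENSMUSG00000036893, chromosome 2, 24790769 to 24919643, minus strand), the partner of Ehmt2, had 77.2, 80.8 and 74.7 CPM at 0h, 73.5, 73.4 and 76.7 CPM at 6h, and 76.3, 77.1 and 73.1 CPM at 24h. The times overlapped. Its log2 change was -0.06 at 6h against 0h, with a 95% interval from -0.13 to 0.01 (adjusted p = 0.185). The ratio of Ehmt2 to Ehmt1 counts was 2.55, 2.45 and 2.54 at 0h, 1.93, 2.04 and 1.96 at 6h, and 2.45, 2.36 and 2.51 at 24h. The 6h ratios were thus below all others. The ratio is of counts not divided by transcript length, so it compares libraries and not the levels of the 2 genes.

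The genes most like Ehmt2 in pattern were found by Pearson correlation of log2 CPM over the 9 libraries, among 8608 protein-coding genes averaging at least 10 CPM. They were Ptms (r = 0.994), Man2a2 (r = 0.993) and Sorbs3 (r = 0.993). Sorbs3 had 48.4 to 50.3 CPM at 0h, 29.1 to 32.4 CPM at 6h and 44.6 to 48.5 CPM at 24h. The 9 points share 3 groups, and the correlation is a description.

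Suv39h2 (ENSMUSG00000026646, chromosome 2, 3455815 to 3474986, minus strand) had 43.1, 44.8 and 43.2 CPM at 0h, 47.9, 46.7 and 50.1 CPM at 6h, and 42.1, 41.4 and 45.1 CPM at 24h. The 6h libraries were all higher than the rest, while 24h and 0h overlapped. At 6h Suv39h2 rose, with a log2 change of 0.14 against 0h (SE 0.040, adjusted p = 0.00541). Without 6h replicate 3 that change was 0.11 with an adjusted p of 0.0548, and it was not called. At 24h it fell by 0.17 against 6h (SE 0.040, adjusted p = 0.00154). The annotated spans of Suv39h2 and Dclre1c overlap, as do those of Setdb1 and Cers2, Trim28 and Gm31649, and Cbx1 and the pseudogene Gm11517. Cers2 and Gm31649 lie on the strand opposite to the member, and the counts were stranded. Gm31649 was not matched among the genes counted. Reads in overlaps on the same strand may be left out, and the strands of Dclre1c and Gm11517 were not checked.

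Suv39h1 (ENSMUSG00000039231, chromosome X, 8061171 to 8074760, minus strand), which encodes the paralogous enzyme, had 87.7, 93.4 and 88.1 CPM at 0h, 93.2, 86.5 and 89.3 CPM at 6h, and 92.4, 88.8 and 87.1 CPM at 24h. The times overlapped throughout. Its log2 change at 6h against 0h lay between -0.07 and 0.07 (95% interval, adjusted p = 0.997). The ratio of Suv39h2 to Suv39h1 counts was 0.492, 0.479 and 0.490 at 0h, 0.514, 0.540 and 0.561 at 6h, and 0.456, 0.466 and 0.518 at 24h. The 6h ratios lay above those at 0h with no overlap, and the 24h ratios overlapped both.

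Trim28 (KAP1, ENSMUSG00000005566, chromosome 7, 13024152 to 13031032, plus strand) had 379, 389.7 and 395 CPM at 0h, 368, 374 and 371 CPM at 6h, and 388, 398 and 399 CPM at 24h. The 6h libraries were lower than all others by a small margin. At 6h Trim28 fell, with a log2 change of -0.06 against 0h (SE 0.024, adjusted p = 0.0441). That call was lost without 0h replicate 2, without 0h replicate 3 or without any 1 of the 3 replicates at 6h, with adjusted p of 0.129, 0.177, 0.135, 0.0696 and 0.0652 in that order. It was also lost without the filter on low counts (adjusted p = 0.0647). At 24h Trim28 rose by 0.09 against 6h (SE 0.024, adjusted p = 0.00474), and that call held without any 1 library.

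Setdb1 (ENSMUSG00000015697, chromosome 3, 95323525 to 95357202, minus strand), the methyltransferase that Trim28 recruits, had 83.1, 80.6 and 83.6 CPM at 0h, 81.9, 85.2 and 81.5 CPM at 6h, and 84.8, 83.3 and 80.6 CPM at 24h. The times overlapped, and its log2 change at 6h against 0h was 0.01 (95% interval -0.06 to 0.07, adjusted p = 0.870).

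The 3 HP1 genes were not called in any comparison. Cbx5 (HP1 alpha, ENSMUSG00000009575, chromosome 15, 103191546 to 103239904, minus strand) had 1100, 1093 and 1102 CPM at 0h, 1085, 1104 and 1094 CPM at 6h, and 1142, 1147 and 1119 CPM at 24h. Its 24h libraries were all above the rest. The log2 change at 24h was 0.05 against 6h (SE 0.022, adjusted p = 0.0571) and 0.05 against 0h (SE 0.022, adjusted p = 0.216). The 24h against 6h change passed in DESeq2 (adjusted p = 0.0101), with DESeq2's size factors in edgeR (0.0438) and without 24h replicate 3 (0.0199). The start of Hnrnpa1, which encodes an RNA-binding splicing protein, lies 545 bp from that of Cbx5 on the other strand. Hnrnpa1 rose by 0.15 at 6h and by 0.16 at 24h on the log2 scale against 0h (adjusted p = 1.1e-05 and 5.3e-05). Of the nearest neighbouring starts of the 9 members, 7 belonged to tested genes. Zbtb12, 3915 bp from Ehmt2, fell by 0.19 at 6h against 0h and rose by 0.34 at 24h against 6h (adjusted p = 0.00676 and 1.4e-05). Arrdc1, next to Ehmt1, rose by 0.24 at 24h against 0h and by 0.26 at 24h against 6h (adjusted p = 0.0319 and 0.0043). Hnrnpa2b1, 722 bp from Cbx3, was not called, nor were Snx11, Hspa14 and Cers2.

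Cbx1 (HP1 beta, ENSMUSG00000018666, chromosome 11, 96788680 to 96808982, plus strand) had 132, 123 and 122 CPM at 0h, 128, 131 and 128.5 CPM at 6h, and 133, 129.7 and 133 CPM at 24h. The 0h replicate 1 stood among the later libraries. The log2 change at 24h against 0h was 0.07 (95% interval 0.01 to 0.13, adjusted p = 0.158). Without 0h replicate 1 Cbx1 was called in both comparisons with 0h, at 0.08 for 6h (adjusted p = 0.0459) and 0.11 for 24h (adjusted p = 0.0331).

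Cbx3 (HP1 gamma, ENSMUSG00000029836, chromosome 6, 51470154 to 51483704, plus strand) had 28.1, 27.2 and 25.4 CPM at 0h, 27.6, 25.1 and 25.2 CPM at 6h, and 27.3, 28.1 and 27.3 CPM at 24h. The times overlapped, and the log2 change at 24h against 6h was 0.08 (95% interval -0.02 to 0.19, adjusted p = 0.225). The count table also holds 5 Cbx3 pseudogenes, with at most 15 counts in any library. Between 12.2 and 12.9% of reads mapped to more than 1 place and were not counted, so the level of Cbx3 is uncertain where its reads are shared with such copies.

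**Figure D2:**
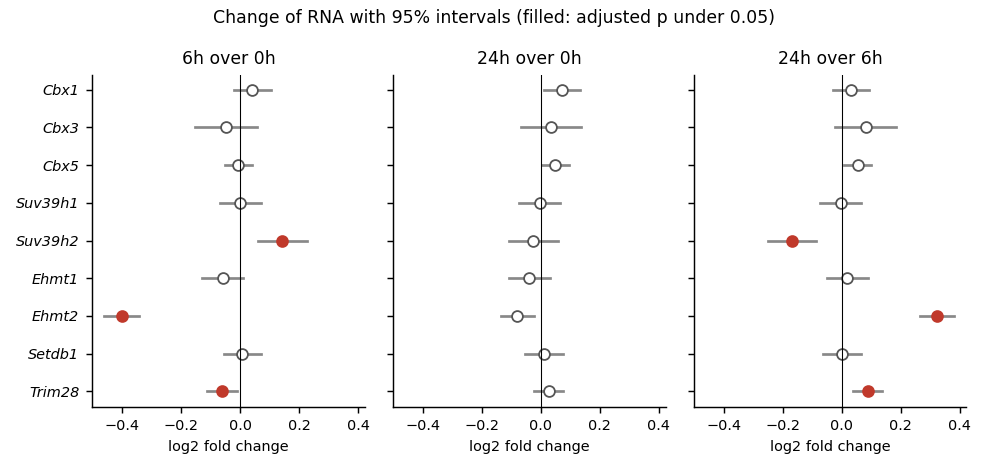
Log2 fold change of each of the 9 genes (points) with its 95% interval (lines) at 6h over 0h, 24h over 0h and 24h over 6h, from edgeR with 3 libraries a group. Filled points have an adjusted p under 0.05 over 13785 genes, and the Ehmt2 change of -0.40 at 6h over 0h is the farthest from 0.

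Of 48 listed partners, demethylases and readers, 44 were tested. At 6h against 0h 10 rose and 7 fell, at 24h against 0h 0 rose and 2 fell, and at 24h against 6h 6 rose and 14 fell. The shares of all genes called in these comparisons were 39.0%, 7.04% and 36.1%, and at 24h against 6h 18.8% of all genes fell. Among genes averaging 10 CPM or more, as most of the 44 do, the shares called were 51.9%, 10.3% and 47.5%. Counts of the shorter lists below are to be read against the same shares. Their median log2 changes were 0.01, -0.02 and -0.03 in that order, beside 0.0067, -0.0017 and 0.0013 over all genes. Log2 changes ran from -0.53 to 0.34 at 6h against 0h and from -0.35 to 0.47 at 24h against 6h. Both the lowest of the first range and the highest of the second belong to Adnp, a partner gene named after its values were seen, which had 20 to 53 counts per library and was not called. Setdb2, which encodes a SET domain relative of Setdb1, rose by 0.34 at 6h to 19.5 CPM, against 15.4 CPM at 0h (adjusted p = 2.5e-05), the only call among 4 tested genes of other SET and PRDM enzymes.

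Among 7 tested partners of the methyltransferases, Cdyl2 and Zfp462 rose and Atf7ip fell at 6h against 0h. Atf7ip, whose protein stabilizes Setdb1, averaged 76.3 CPM at 6h and 84.3 CPM at 0h (log2 change -0.14, adjusted p = 5.4e-04). Wiz, whose zinc-finger protein binds the Ehmt1 and Ehmt2 heterodimer, averaged 95.2 CPM at 24h and 108 CPM at 0h (log2 change -0.18, adjusted p = 3.3e-04). Cdyl, a chromodomain protein gene, was the other gene called at 24h against 0h (log2 change -0.16, adjusted p = 0.0246). At 24h against 6h 5 of the 7 fell, among them Cdyl2 (-0.21), Zfp462 (-0.18), Mbd1 (-0.18) and Wiz (-0.13).

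Of the 4 genes of the HUSH complex and its effector Morc2a, which silence retroelements together with Setdb1, Pphln1 rose by 0.23 at 6h against 0h (adjusted p = 2.6e-07). It fell by 0.23 at 24h against 6h, as did Fam208a by 0.11. Of 10 tested H3K9 demethylases 3 rose and 3 fell at 6h against 0h, where 20.8% of all genes rose and 18.2% fell. Kdm3b (-0.16), Kdm3a (-0.15), Jmjd1c (0.10) and Kdm7a (0.31) had the smallest adjusted p, from 3.8e-05 to 0.0138. At 24h against 6h 2 demethylase genes rose, Kdm3b (0.14) and Phf2 (0.12), and 2 fell, Kdm7a (-0.35) and Kdm4c (-0.12).

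Of 14 tested HP1 partners and readers, Lrif1 (0.26), Mis12 (0.13) and Daxx (0.10) rose and Chaf1a (-0.07) fell at 6h against 0h. Lrif1 encodes an HP1-binding protein of the inactive X chromosome, and Daxx is the chaperone of histone H3.3. At 24h against 6h 3 of these genes rose and 3 fell, with the smallest adjusted p in Lrif1 (-0.34), Daxx (-0.12), Cenpa (0.09) and Uhrf1 (0.06). In the list of H4K20 and DNA methyltransferases, Kmt5c (-0.29) and Dnmt3a (-0.18) fell at 6h against 0h. Kmt5c, which is recruited by HP1 proteins to methylate H4K20, rose by 0.23 at 24h against 6h, where Kmt5b fell by 0.12. Of 15 proliferation genes 2 rose (Rrm2 by 0.20, Tyms by 0.11) and 2 fell (Ccnb2 by 0.33, Mki67 by 0.19) at 6h against 0h, beside 39.0% of all genes called. At 24h against 0h Cdk1 (0.10) and Pcna (0.09) rose and 0 fell, and at 24h against 6h 4 rose and 1 fell.

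**Figure D3:**
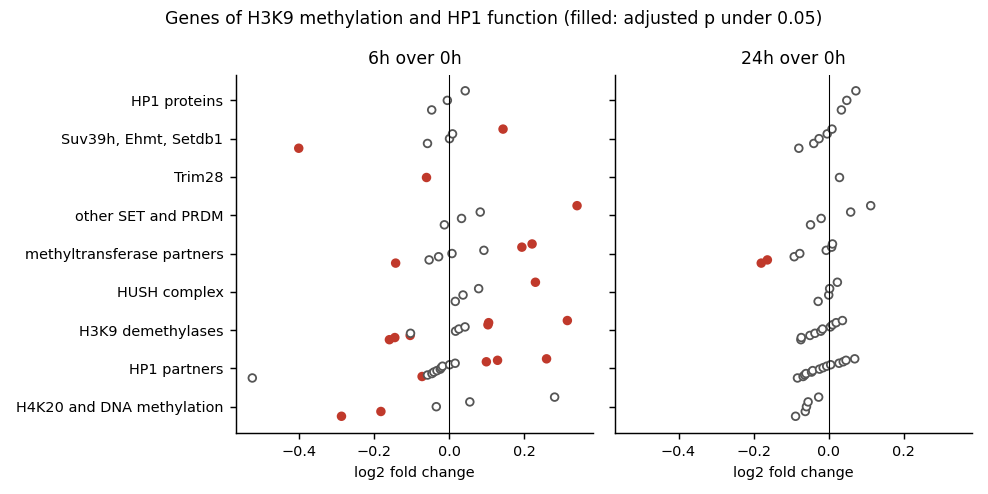
Log2 fold change (horizontal axes) of the members in the top 3 rows and of 44 other tested pathway genes in the rows below, at 6h over 0h (left) and 24h over 0h (right). Each point is a gene, filled at an adjusted p under 0.05, and the filled points at 24h over 0h are Wiz and Cdyl.

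In chromatin, the gene bodies of these loci held no macroH2A2 region at 0h, had regions at 6h in 6 of 9 genes, and were almost free of them at 24h and 5d. Coverage means the percent of bases of the gene body, 1 kb trimmed at both ends, inside the authors' called regions. With 1 library per condition every difference is a description without a test. At 6h Cbx5 had 81.5% of its body covered, Ehmt2 43.1%, Ehmt1 40.2%, Suv39h2 25.6%, Cbx1 25.0% and Setdb1 18.6%. Cbx3, Suv39h1 and Trim28 had 0% in all 7 macroH2A2 libraries. The median over the members at 6h was 25.0%, beside 6.76% over the 8328 protein-coding genes of 3 kb or more with 10 CPM or more at 0h, a class that holds all 9 members. Of those 8328 genes, 57.0% had any coverage at 6h. At 0h 93.0% of them had none, at 24h 86.9% and at 5d 91.9%, so bodies without regions at these times were the usual state of this class.

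Coverage was higher at 6h than at 0h by 20 points or more in 5 of 9 members, which compares with 34.8% of the genes at 10 CPM or more and 22.9% of all 18411 genes examined. With only regions at or above the median score of their library, no member passed 20 points, the median at 6h was 0% and only Cbx1 kept any coverage (4.27%). Shares of all genes with this stricter score were not tallied, here or below. The members' losses under it therefore cannot be read as particular to them. At 24h it was lower than at 6h by 20 points or more in the same count of 5 members, beside 32.8% of the genes at 10 CPM or more and 18.1% of all. Cbx5 kept 4.31% at 24h, in 1 region of 2000 bases, and the other 8 members had 0%. At 5d all 9 were at 0%, also with the wider calling window of 1000 bases. The members without a region at 6h were the shorter ones, at 6881 bases for Trim28, 13551 for Cbx3 and 13590 for Suv39h1. Among genes at 10 CPM or more, any coverage at 6h was found in 25.5% of those of 3 to 10 kb, 42.2% of 10 to 20 kb, 58.4% of 20 to 50 kb and 84.5% of longer ones. It also varied by chromosome, from 17.7% on X and 25.0% on 7, which hold Suv39h1 and Trim28, to 85.8% on 15 and 85.5% on 17, which hold Cbx5 and Ehmt2. The part of length and chromosome in the members' values was not tested.

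**Figure D4:**
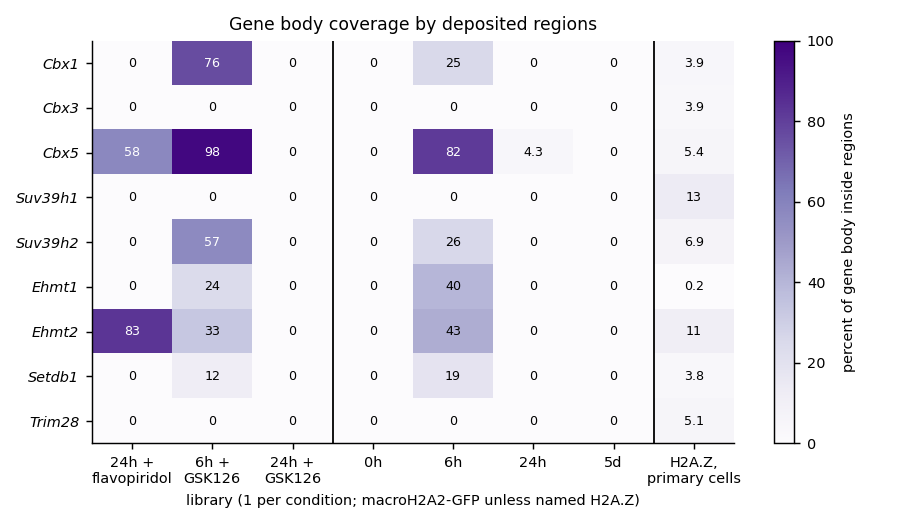
Percent of each gene body inside deposited regions (color and printed value) for the 9 genes (rows) in 8 ChIP libraries (columns), with inhibitor libraries on the left, the doxycycline times in the middle and H2A.Z on the right. The 6h columns with and without GSK126 are filled in 6 of 9 genes, and the flavopiridol column in Cbx5 and Ehmt2.

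With flavopiridol, 2 members had covered bodies at 24h. Ehmt2 had 82.8% with flavopiridol and 0% at 24h without it, and Cbx5 had 57.8% with flavopiridol and 4.31% without it. The other 7 members were at 0% in both. With the stricter score no member had coverage with flavopiridol. A gain of 20 points or more was found in 15.5% of genes at 10 CPM or more and in 11.7% of all genes examined. On chromosomes 15 and 17, which hold these 2 genes, the share among genes at 10 CPM or more was 36.6% and 41.0%, and the part of the chromosome in the result was not tested.

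At Ehmt2 the regions with flavopiridol ran from 1.74 to 8.74 kb and from 10.3 to 22.1 kb after the gene start, past the gene's end. At 6h they ran from 1.34 to 5.94 kb and from 13.3 to 19.7 kb. At Cbx5 the 3 flavopiridol regions lay between 3.30 and 32.5 kb after the start, and the 3 regions at 6h between 3.10 and 51.7 kb. The H2A.Z region over each start ended at 2.54 kb in Ehmt2 and, for the first of 2 annotated starts, at 1.50 kb in Cbx5, in other cells than the macroH2A2 data. A further H2A.Z region lay at 23.9 to 25.9 kb in Cbx5, over its second start and inside the macroH2A2 region of 3.10 to 26.5 kb at 6h.

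The 50 kb on both sides of Ehmt2 were 64.0% covered at 0h, 73.2% at 6h, 71.5% at 24h and 59.7% at 5d, while its body was at 0% at 0h, 24h and 5d. Flanks of Cbx5 were 36.0% covered at 0h, 87.3% at 6h, 58.9% at 24h and 45.7% at 5d. Those of Suv39h1 and Trim28 were at most 4.80% covered in these 4 libraries. At 0h, without doxycycline and in cells labelled as lacking macroH2A2, 28980 regions covered 201.1 Mb in all. What the 0h regions represent was not tested, so flank coverage at 0h cannot be taken as induced macroH2A2.

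**Figure D5:**
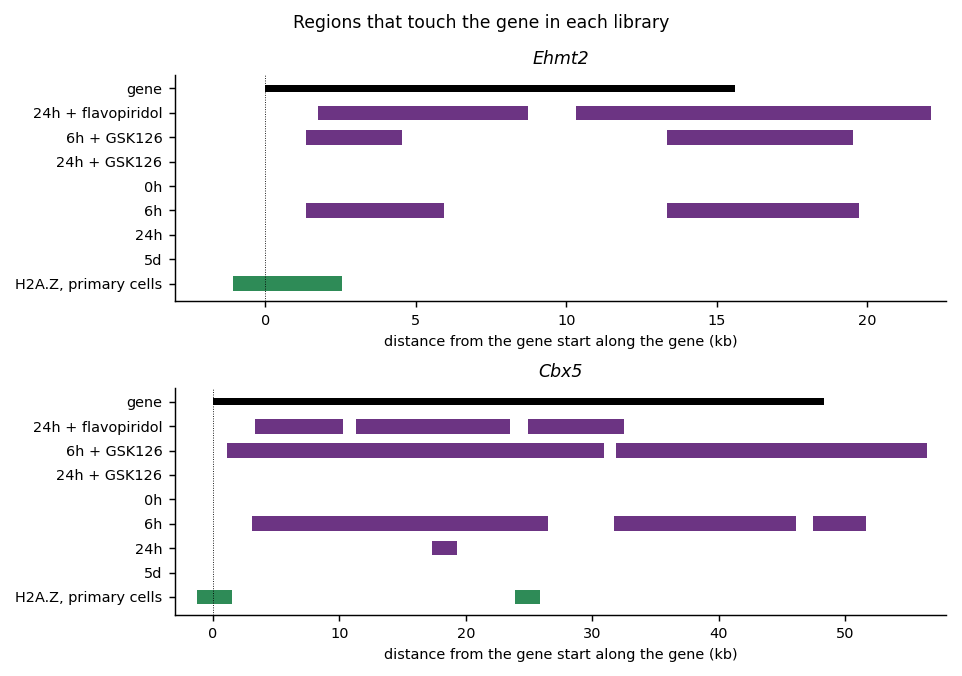
Deposited regions that touch Ehmt2 (top) and Cbx5 (bottom), as distance from the gene start in kb along the gene. Each row is 1 library and the black bar is the gene. Ehmt2 has regions in its body with flavopiridol, at 6h with GSK126 and at 6h, and none at 0h, 24h or 5d.

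After GSK126, Cbx1, Cbx5, Suv39h2, Ehmt1, Ehmt2 and Setdb1 had regions at 6h, as they did without it, and none of the 9 had any at 24h. Of genes at 10 CPM or more, 64.1% had any coverage at 6h with GSK126 and 13.0% at 24h with GSK126. Cbx1 had 76.4% with GSK126 and 25.0% without it at 6h, and Suv39h2 had 57.0% with it and 25.6% without it. These 2 of 9 members gained 20 points or more, beside 12.3% of genes at 10 CPM or more and 8.36% of all examined, and 0 did so with the stricter score. Cbx5 had 97.6% with GSK126 and 81.5% without it. Values were lower with GSK126 in Ehmt1 (24.1% against 40.2%), Ehmt2 (32.9% against 43.1%) and Setdb1 (12.0% against 18.6%). The authors' score was 2 in a Cbx1 region of 1.4 kb at 6h and in a Cbx1 region of 9.6 kb at 6h with GSK126. All other macroH2A2 regions that touch members had a score of 1. The median score, which is the stricter limit, was 2 at 6h, at 24h, with flavopiridol and in both GSK126 libraries. It was 1 at 0h and 5d, so the stricter limit differed between libraries. Nearly all member regions thus scored below the median of their library.

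H2A.Z, a variant typical of active promoters, lay at all starts of the members in the primary fibroblasts. Its regions covered 67.5 to 100% of the 2 kb around each of the 13 annotated starts and 0.192 to 13.5% of the gene bodies. This was usual: of 8742 annotated starts of genes at 10 CPM or more, 80.8% had 67.5% or more of the same window covered, and the median was 93.2%. That class was set by RNA at 0h in the immortalized cells, since the primary cells had no RNA library.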

How the data were processed

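Per the labels' protocols and the submitters' processing notes, RNA libraries were directional, poly(A)-selected and aligned with STAR 2.5.2b, ChIP reads were aligned with Bowtie 1.1.2 to GRCm38, and regions were called with SICER 1.1. The authors deposited unnormalized counts for each gene, read here from column 4, where at least 96.6% of the stranded counts lay. Between 21.2 and 23.1% of reads were not assigned to a gene. In the deposited region lists each region has a whole-number score, used only for a stricter setting, and a running number (unit: other) that is not a measurement. The read depth behind the regions is unknown. Region calls at 200-base windows and 800-base gaps were used, and for 5d also those at 1000 and 4000 bases.

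All 9 RNA libraries were fitted together in edgeR 4.0.16 (R 4.3.3) with filterByExpr, TMM, glmQLFit and glmQLFTest, and p-values were adjusted by Benjamini-Hochberg over the 13785 genes kept in each comparison. The biological coefficient of variation was 2.69%. DESeq2 1.42.0 was an alternative, as were other counts, filters and left-out libraries. The test and the coverage code were tested on simulated data. The design text calls the RNA libraries biological triplicates, and nothing further says that they came from separate cultures, so p-values measure the spread between these libraries. Of the 48440 gene IDs, 48058 had a symbol. Gene positions and promoter windows are those of RefSeq GRCm38.p6, and overlaps were computed in Python 3.11.15 with numpy 2.4.6 and pandas 2.3.3. Figures were drawn with matplotlib 3.10.9. The text names all members, up to 4 called genes of each pathway list with the smallest adjusted p per comparison, and the 3 genes most like the member with the smallest p. Neighbouring genes were named after their values were seen. The members and lists were chosen with earlier results of these data known. Levels of different members are not compared, since exon lengths were not used. Marker levels and sums are likewise not divided by length, so they give only a rough order. The input library was not used.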

Additional observations from a re-analysis of the deposited data

How the results depend on the processing

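The fall of Ehmt2 at 6h and its rise from 6h to 24h kept their direction and call in all 15 alternatives. Of 405 comparisons of single genes with an alternative, 364 kept direction and call, 7 lost the call, 5 gained one and 29 turned direction, all of the last in genes not called. Those were Suv39h1 at 6h over 0h with DESeq2 size factors (-0.005848), no filter (-0.001547), DESeq2 (-0.005869), unstranded counts (-0.02326), the 6 libraries of the contrast alone (-0.004842) and left-out libraries (-0.0295 to 0.02949). Suv39h1 did so at 24h over 0h with those 6 libraries (5.136e-06) or left-out libraries (-0.02932 to 0.02563), and at 24h over 6h without a filter (0.0006613) or with left-out libraries (-0.02981 to 0.02575). Over left-out libraries Setdb1 ran from -0.01207 to 0.01902 at 6h over 0h, from -0.008662 to 0.031 at 24h over 0h and from -0.01707 to 0.02251 at 24h over 6h. Cbx5 ran from -0.01194 to 0.001124 at 6h over 0h, and Cbx3 from -0.005234 to 0.06695 at 24h over 0h.

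No sign of pairing by replicate number was seen. Same-numbered deviations correlated at -0.016 to 0.049 over 9 pairs, and differently numbered ones at -0.073 to 0.051. Such values cannot show that equal numbers share nothing. With the replicate block Suv39h1 stood at -0.0006211 at 6h over 0h, and no call of a member changed. Members that fell at 6h over 0h numbered 1 without the filter and 1 to 2 over left-out libraries, and those that rose 0 to 2. At 24h over 0h members that rose numbered 0 to 1, and all genes called 553 (without 0h replicate 2) to 1148 (without 24h replicate 1), beside 971.

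Without trimming, median coverage was 22.95% at 6h and 10.68% for H2A.Z. Setdb1 then had 20.2% at 6h and 0% at 0h and 24h. It thus joined the members past 20 points at 6h over 0h and at 24h below 6h. With regions at or above their library's median score, the medians were 0% at 6h and 0% at 6h with GSK126. The members past 20 points were then 0 in each of the 4 coverage comparisons: 6h over 0h, 24h below 6h, flavopiridol, and GSK126 at 6h. At a limit of 50 points 1 member was past it at 6h over 0h, 1 at 24h below 6h and 1 with GSK126 at 6h. The cause was not tested. Shares of all genes under the stricter score or the 50-point limit were not tallied, so these counts cannot be read as many or few. With 1 ChIP library per condition and unknown read depth, no coverage difference has a replicate check.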
